A study of Mus musculus with 9 samples.

Results

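The genes described here are those of the D-type cyclin module of the cell cycle: the cyclins Ccnd1, Ccnd2 and Ccnd3, the kinases Cdk4 and Cdk6, the CIP/KIP inhibitors Cdkn1a, Cdkn1b and Cdkn1c, and the INK4 inhibitors Cdkn2c and Cdkn2d. They were taken by gene name from the deposited table, and all 10 were among its 18275 genes. RNA was sequenced from the hippocampus of adult male mice in 9 libraries, 1 per animal. In 4 Nestin;BrafKE/+ mice, 1 Braf allele carried the K499E change (numbered as in human BRAF), which makes the kinase more active, and Nestin-Cre had switched this allele on in neural stem cells, so that neurons, astrocytes and oligodendrocytes arising from them carry it while microglia and blood do not. The 5 Braf+/+ mice were littermates labelled WT, and the labels do not say whether they carried Cre. Both groups are labelled C57BL/6N.

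D-type cyclins are the regulatory subunits of CDK4 and CDK6. The assembled kinase phosphorylates the retinoblastoma protein and so releases E2F factors, which start S phase. INK4 proteins bind CDK4 and CDK6 and keep cyclins off them, whereas CIP/KIP proteins bind the assembled complexes and also block CDK2. Growth factor signalling through RAF, MEK and ERK is the classic inducer of Ccnd1, and the comparison asks how these genes stand in tissue with a more active BRAF. In the adult hippocampus few cells divide, and several of these genes are also expressed in neurons and glia that have left the cell cycle.

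The values are normalised signals in which 1 unit is close to 1 adjusted read. Library totals ran from 19551312 to 20091532, and the sequencing depth is unknown because the authors had adjusted the values for batches. By the form of their names the libraries were sorted into 3 series: A with Nestin;BrafKE/+ replicate 1 and Braf+/+ replicates 1, 2 and 3, B with replicate 4 of Braf+/+ and replicates 2 and 3 of Nestin;BrafKE/+, and C with the last replicate of each genotype. Genotypes were compared with limma on log2(value + 1), with series as a term, over 16196 genes whose mean value reached 10, so a log2 fold change slightly understates the change of low genes. P-values are two-sided and adjusted over all genes tested. The signal of Braf itself, whose alleles the table does not separate, was 2264 ± 144 in the mutants (SD, n = 4) against 2786 ± 153 in the controls (SD, n = 5), with log2 fold change -0.30 and adjusted p = 0.0378. Of 8 genes that mark hippocampal neurons, all were in the table, and their summed signal was 22724 to 23994 in Nestin;BrafKE/+ and 19508 to 20334 in Braf+/+, with 3 (Wfs1, Calb1 and Fibcd1) higher at an adjusted p under 0.05. The choroid plexus and ependyma list (12 genes, none at 0) differed most between libraries, with summed signals of 1907 to 25283 in Nestin;BrafKE/+ and 5136 to 392400 in Braf+/+.

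Ccnd1 was the 1 gene of the 10 that passed an adjusted p of 0.05, and it rose 1.78-fold in the hippocampus of Nestin;BrafKE/+ mice. Of all genes tested 2.88% passed, 1.52% higher and 1.36% lower in Nestin;BrafKE/+. These 466 genes became 42 without Nestin;BrafKE/+ replicate 1, 97 without Braf+/+ replicate 4 and 165 without Nestin;BrafKE/+ replicate 3, and 281 to 369 when any other library was left out. For 3 of the 10 all mutant libraries fell on the same side of all controls: Ccnd1 was higher in every mutant library, and Cdk6 and Cdkn1b were lower. Of all genes tested 15.7% separated the groups in this way, 7.62% upward and 8.13% downward. These 3 and Cdkn1c, 4 of the 10, had an unadjusted p under 0.05, against 18.5% of all genes tested. Log2 fold changes ran from -1.13 to 0.83 with a median of -0.06. The median size regardless of sign was 0.18, and over all genes tested it was 0.12. The sign was the same in all 3 series for 6 of the 10.

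**Figure D1:**
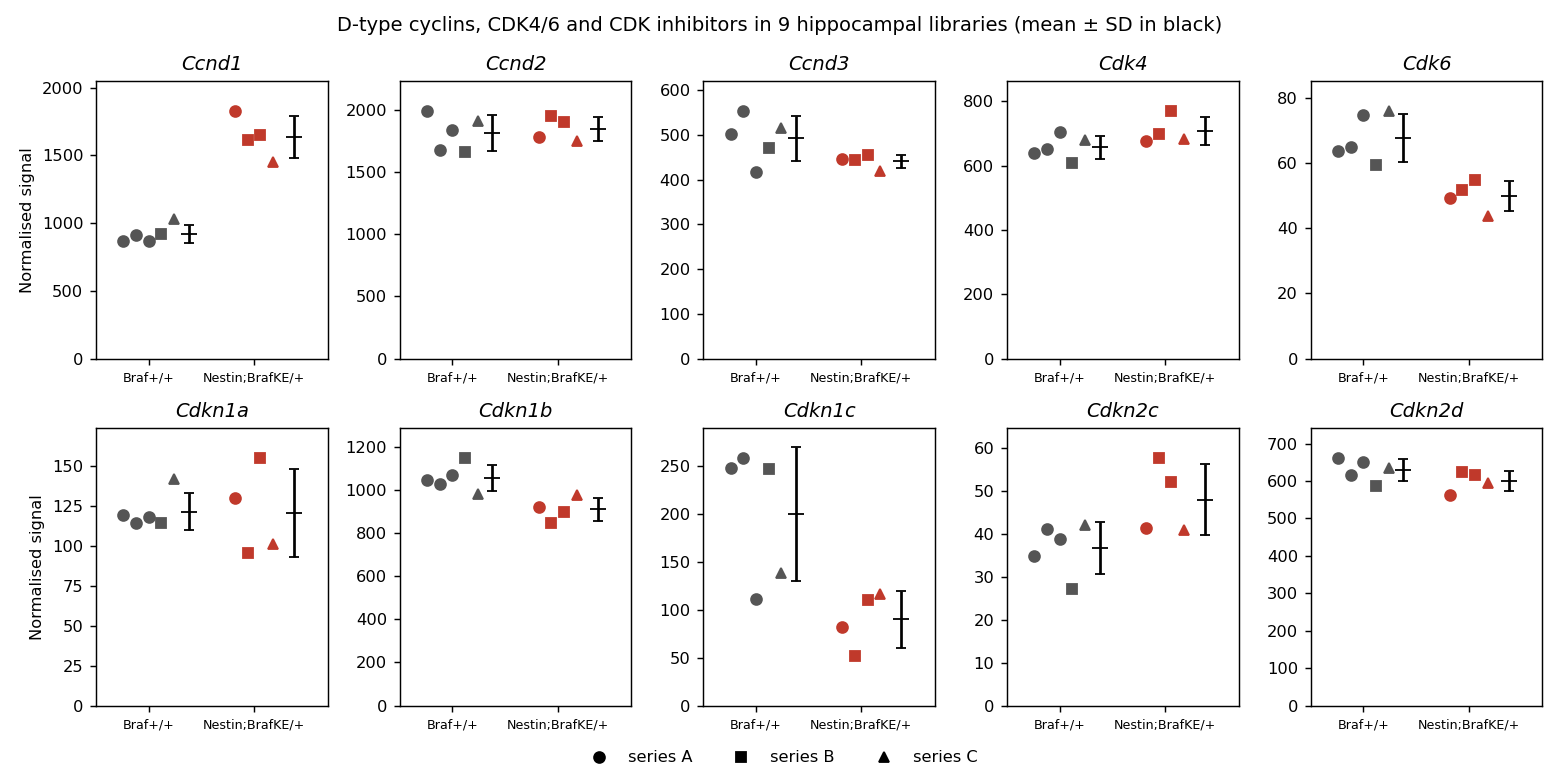
Normalised signal (vertical axes, linear, starting at 0) of the 10 genes in each library of the 2 genotypes, with symbols for the series of library names and the mean ± SD in black. The 4 Nestin;BrafKE/+ libraries lie above all 5 Braf+/+ libraries for Ccnd1 and below all of them for Cdk6 and Cdkn1b.

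Of the D-type cyclins, Ccnd1 (ENSMUSG00000070348, chromosome 7, 144483668 to 144493662 in GRCm39) encodes cyclin D1, the member most directly tied to growth factor signalling. Its normalised signal in Nestin;BrafKE/+ replicates 1 to 4 was 1830, 1612, 1653 and 1452. In Braf+/+ replicates 1 to 5 it was 868, 914, 867, 917 and 1033. Every mutant library lay above every control, and the lowest mutant library and the highest control both belonged to series C. The group means were 1637 ± 155 (SD, n = 4) and 920 ± 67.5 (SD, n = 5), or 0.83 ± 0.09 (SE) on the log2 scale (limma adjusted p = 0.00177). The 95% interval ran from 1.56-fold to 2.02-fold. The log2 differences of series A, B and C were 1.05, 0.83 and 0.49. A two-sided exact permutation test gave p = 0.00794 over the 126 arrangements of genotype and p = 0.0417 over the 24 arrangements that keep the series, in both cases the smallest that can be reached. Ccnd1 passed whichever library was left out, with log2 fold changes of 0.69 to 0.95 and adjusted p-values of at most 0.0218. Its fold change ranked 43 among the 246 genes that rose, and 2, after that of Dusp6, among the 122 of them with a mean value of 1000 or more. In whole tissue more cells of a type and more RNA per cell cannot be told apart from these values. By staining, the study counted Olig2-positive oligodendrocytes in the hippocampus and cortex and reported no change in Nestin;BrafKE/+ mice. Ccnd1 is known to be expressed in oligodendrocyte precursors. The summed signal of 10 marker genes of these cells, none at 0, was 7969 to 8869 in Nestin;BrafKE/+ and 6424 to 7571 in Braf+/+. Sums of oligodendrocyte, pyramidal cell and interneuron genes did not overlap between genotypes either, and the cell type behind the rise was not tested. With the mean level of the oligodendrocyte precursor list as a covariate, chosen after the data had been seen, Ccnd1 no longer passed. Its log2 difference was 0.74 with an SE of 0.20 (limma adjusted p = 0.707), and 0 of all genes tested passed. The sums of this list separate the genotypes, so the covariate largely follows genotype. For that reason this fit cannot tell whether the Ccnd1 difference depends on these cells.

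Ccnd2 (ENSMUSG00000000184, chromosome 6, 127102125 to 127129156) encodes cyclin D2, which neural progenitors of the adult dentate gyrus depend on. Its normalised signal was 1778, 1949, 1902 and 1748 in Nestin;BrafKE/+ and 1993, 1681, 1837, 1661 and 1912 in Braf+/+. The mutant libraries lay inside the range of the controls. The log2 fold change was 0.02 (SE 0.07), and its 95% interval of 0.908-fold to 1.14-fold excludes a change of the size seen for Ccnd1. Within series it was -0.04, 0.21 and -0.13 in A, B and C. Ccnd3 (ENSMUSG00000034165, chromosome 17, 47815767 to 47910624), which encodes cyclin D3, had a normalised signal of 446, 443, 455 and 419 in Nestin;BrafKE/+ and 502, 554, 418, 471 and 515 in Braf+/+. The groups overlapped through Braf+/+ replicate 3, the lowest of all 9. On the log2 scale it differed by -0.15 (SE 0.10, adjusted p = 0.440), with a negative sign in every series (-0.13, -0.07 and -0.30). Predicted transcripts overlap Ccnd3 on its own strand, so some of its reads cannot be assigned with certainty.

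**Figure D2:**
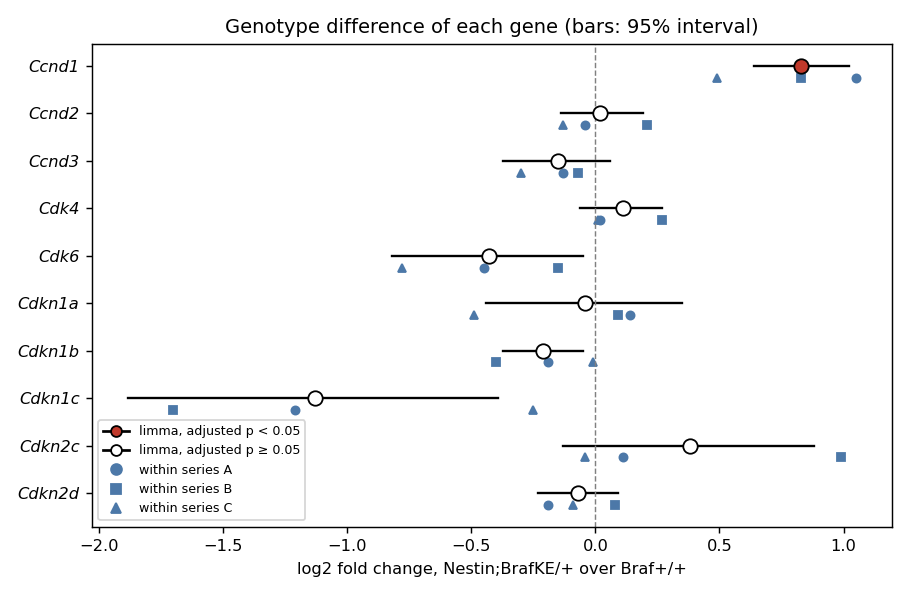
Log2 fold change of Nestin;BrafKE/+ over Braf+/+ (horizontal axis) for each of the 10 genes, with circles for the limma estimate, bars for its 95% interval and small blue symbols for the difference within each series. Ccnd1, in red, is the gene past an adjusted p of 0.05, and its 3 series differences lie between 0.49 and 1.05.

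To compare the 3 cyclins, signals were divided by the length of their annotated exons (4.783 kb for Ccnd1, 9.409 kb for Ccnd2 and 9.245 kb for Ccnd3). Per kb, Ccnd1 and Ccnd2 stood at close levels in Braf+/+, 192 ± 14.1 and 193 ± 15.3 (SD, n = 5), and Ccnd3 at 53.2 ± 5.51. In Nestin;BrafKE/+ the levels per kb were 342 ± 32.5 for Ccnd1, 196 ± 10.3 for Ccnd2 and 47.7 ± 1.68 for Ccnd3 (SD, n = 4). Ccnd1 therefore made up 61.7, 56.9, 57.9 and 56.8% of the summed D-type cyclin level in the mutant libraries, and 40.6, 44.5, 43.0, 45.7 and 45.5% in the controls. The groups did not overlap, and the mean share was 58.3% ± 2.32 (SD, n = 4) against 43.8% ± 2.13 (SD, n = 5). The difference was 14.5 percentage points, with an exact permutation p of 0.00794 over all arrangements and 0.0417 within series, again the smallest possible. It was 19.1, 11.7 and 11.3 points within series A, B and C. The share is built from the Ccnd1 values tested above, so its p-values are no separate support for the rise of Ccnd1. The summed level per kb of the 3 cyclins was 535 to 620 in Nestin;BrafKE/+ and 419 to 475 in Braf+/+. Exon length includes untranslated parts that not every transcript uses, so the share depends on the annotation, and without division by length it was 41.7% against 28.5%.

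**Figure D3:**
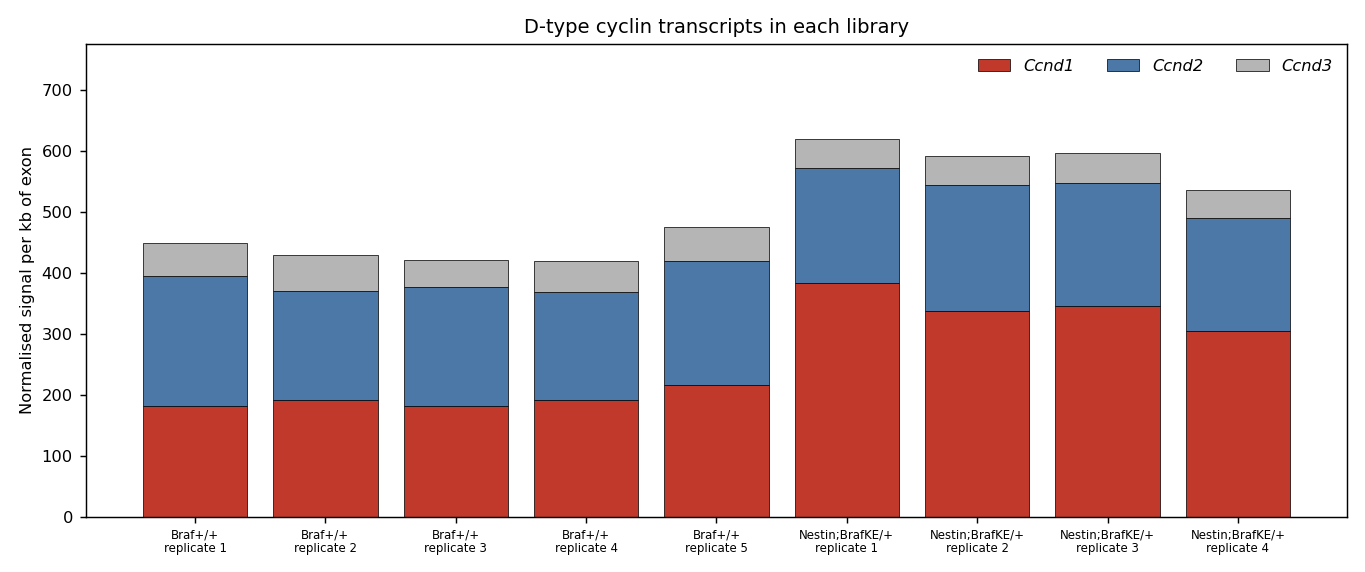
Stacked normalised signal per kb of exon of Ccnd1, Ccnd2 and Ccnd3 (vertical axis, starting at 0) in each of the 9 libraries. The stacks of the 4 Nestin;BrafKE/+ libraries reach 535 to 620 and those of the 5 Braf+/+ libraries 419 to 475, with Ccnd1 at a mean of 342 and 192.

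Neither of the kinases that D-type cyclins activate passed the test. Cdk4 (ENSMUSG00000006728, chromosome 10, 126895180 to 126903789) had a normalised signal of 676, 699, 771 and 682 in Nestin;BrafKE/+ and 641, 652, 704, 607 and 680 in Braf+/+, and the groups overlapped. Its log2 difference was 0.11 (SE 0.08, adjusted p = 0.502), and the 95% interval was 0.957-fold to 1.21-fold. The difference was 0.27 in series B and 0.02 and 0.01 in A and C, and leaving out Braf+/+ replicate 4 gave 0.02. Cdk6 (ENSMUSG00000040274, chromosome 5, 3391485 to 3581008), the close relative of Cdk4, was at 4.70 per kb of exon in Braf+/+, where Cdk4 was at 191. Its signal was 49.2, 51.7, 54.9 and 43.9 in Nestin;BrafKE/+ and 63.6, 65.0, 74.7, 59.3 and 76.1 in Braf+/+. All mutant libraries were below all controls, and the difference was negative in each series (-0.45, -0.15 and -0.78). The log2 fold change of -0.43 (SE 0.18) had an unadjusted p of 0.0318 and an adjusted p of 0.219 and did not pass. Its exact permutation p-values, 0.00794 over all arrangements and 0.0417 within series, were the smallest that can be reached, as for Ccnd1. The first takes no account of series and requires groups that do not overlap, as 15.7% of all genes tested had. With the oligodendrocyte precursor covariate the log2 fold change of Cdk6 was -0.99 with an SE of 0.38. Per kb, Cdk6 made up 1.66% ± 0.0991 (SD, n = 4) of the summed Cdk4 and Cdk6 level in the mutants and 2.40% ± 0.136 in the controls (SD, n = 5). This share was chosen after the values had been seen and is given as a description.

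Of the CIP/KIP inhibitors, Cdkn1b (ENSMUSG00000003031, chromosome 6, 134897364 to 134902476) was the most abundant per kb. It encodes p27, which holds CDK2 complexes inactive in cells that have stopped dividing. Its normalised signal was 923, 848, 897 and 977 in Nestin;BrafKE/+ and 1048, 1030, 1069, 1149 and 983 in Braf+/+. The groups did not overlap, although the highest mutant library (977) and the lowest control (983), both of series C, were almost level. The log2 fold change was -0.21 (SE 0.07, unadjusted p = 0.0130, adjusted p = 0.147), and it was -0.19, -0.40 and -0.01 within series A, B and C. Without Braf+/+ replicate 4 it was -0.11 (adjusted p = 0.541), and with the oligodendrocyte precursor covariate it was -0.02 with an SE of 0.16. Exact permutation p-values were 0.0159 over all arrangements and 0.0417 within series. Cdkn1b and Ccnd2 share chromosome 6 with Braf, at 95.3 and 87.5 Mb from it.

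Sequence upstream of the start site is shown for Cdkn1b and Cdk6, the genes with lower values in every mutant library. RefSeq promoter windows of the GRCm38.p6 build were matched by symbol for 7 of the 10 genes, not for Ccnd1, Ccnd2 or Cdkn1c, and the 250 bases before the start site were located in GRCm39 by exact match. The Cdkn1b window lies at chr6:134897114-134897363 and ends at the annotated start of the gene, and that of Cdk6 lies at chr5:3393643-3393892, where the start site is 2408 bases inside the annotated gene. Both are on the plus strand and are written 5′ to 3′, with capitals for matches to the motifs searched.
Cdkn1b: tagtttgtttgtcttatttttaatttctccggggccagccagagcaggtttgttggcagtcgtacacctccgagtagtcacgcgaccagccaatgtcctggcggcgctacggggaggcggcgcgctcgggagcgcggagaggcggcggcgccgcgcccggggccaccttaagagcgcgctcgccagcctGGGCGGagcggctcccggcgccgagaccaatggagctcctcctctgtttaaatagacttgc
Cdk6: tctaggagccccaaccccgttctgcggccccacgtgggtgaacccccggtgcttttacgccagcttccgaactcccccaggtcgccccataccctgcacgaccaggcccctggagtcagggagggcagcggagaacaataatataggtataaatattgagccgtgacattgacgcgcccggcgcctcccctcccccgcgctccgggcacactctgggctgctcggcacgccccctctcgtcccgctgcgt
The motifs were GGGCGG (GC box), TTTNGCGC (E2F), GTAAACA (forkhead), TGANTCA (AP-1) and CCGGAAG (ETS), on both strands. The Cdkn1b window held 1 GC box, which 32.7% of the 32851 windows hold, and none of the other motifs, and the Cdk6 window held none of the 5. For comparison, 1.13% of all windows held the E2F letters, 3.17% forkhead, 6.75% AP-1 and 6.91% ETS. The windows of Cdkn1b and Cdk6 held 28 and 22 CG dinucleotides, against a median of 6 over all windows.

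Cdkn1c (ENSMUSG00000037664, chromosome 7, 143012069 to 143014806) encodes p57, an imprinted inhibitor that is strongly expressed in embryonic tissues and keeps neural stem cells quiescent. Its normalised signal was 82.3, 51.7, 110 and 117 in Nestin;BrafKE/+. In Braf+/+ it was 248, 259, 111, 247 and 139, so that replicates 1, 2 and 4 stood above every other library, replicate 3 lay inside the mutant range and replicate 5 just above it. The log2 fold change of -1.13 was the most negative of the 10, but with an SE of 0.34 its unadjusted p was 0.00664 and its adjusted p 0.107. The exact permutation p was 0.0317 over all arrangements and 0.0417 within series. Series A gave -1.21, B -1.70 and C -0.25, and with 1 library left out the estimate ran from -0.83 (adjusted p = 0.432, without Braf+/+ replicate 4) to -1.44 (without either library of series C). Of the 12 choroid plexus and ependyma genes 10 were lower in Nestin;BrafKE/+, with a median log2 fold change of -1.29, and none passed. The list varied between the controls as well. Its summed signal was 392400 and 114879 in Braf+/+ replicates 2 and 4, and 5136, the lowest of the controls, in replicate 1. Ttr had the highest mean of its genes, 13813 in Nestin;BrafKE/+ against 102581 in Braf+/+. With the mean log2 level of this list as a covariate, the log2 fold change of Cdkn1c was -0.83 (adjusted p = 0.202) and that of Ccnd1 was 0.86 (adjusted p = 0.00374). With the oligodendrocyte precursor level as the covariate the sign of Cdkn1c turned, to 0.23 with an SE of 0.68. Both covariates were chosen after the data had been seen. A noncoding transcript overlaps Cdkn1c on its own strand.

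Cdkn1a (ENSMUSG00000023067, chromosome 17, 29309936 to 29319701) encodes p21, the inhibitor that p53 induces after DNA damage. Its normalised signal was 130, 95.4, 155 and 101 in Nestin;BrafKE/+ and 119, 114, 118, 114 and 142 in Braf+/+. The mutant libraries lay on both sides of the controls, with a coefficient of variation of 22.9% against 9.59%. The log2 fold change was -0.04 (SE 0.18), and its 95% interval of 0.740-fold to 1.27-fold was wide. The summed level per kb of the 3 CIP/KIP inhibitors was 226 to 285 in Nestin;BrafKE/+ and 304 to 386 in Braf+/+, a sum chosen after the values had been seen.

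The INK4 inhibitors did not pass either. Cdkn2d (ENSMUSG00000096472, chromosome 9, 21199700 to 21202727) encodes p19INK4d, which helps postmitotic neurons stay out of the cell cycle. Its normalised signal was 563, 624, 616 and 596 in Nestin;BrafKE/+ and 662, 615, 650, 588 and 634 in Braf+/+, and the groups overlapped. The log2 difference of -0.07 (SE 0.07, adjusted p = 0.652) had a 95% interval of 0.853-fold to 1.06-fold. Cdkn2c (ENSMUSG00000028551, chromosome 4, 109517957 to 109524386) encodes p18INK4c and was low in every library. Its signal was 41.2, 57.6, 51.9 and 40.9 in Nestin;BrafKE/+ and 34.8, 41.0, 38.8, 27.1 and 42.0 in Braf+/+. The log2 difference of 0.38 (SE 0.23, adjusted p = 0.424) was 0.99 within series B, 0.11 within A and -0.04 within C, and without Braf+/+ replicate 4 it was 0.05. Of the INK4 genes that are not among the 10, Cdkn2a had no values and was not tested. Cdkn2b was at 13.0 ± 2.49 in the mutants (SD, n = 4) and 12.8 ± 4.05 in the controls (SD, n = 5), with limma adjusted p = 0.954. Genes on the opposite strand overlap each of the 10, with protein-coding ones at Ccnd1, Ccnd3 and Cdk4. Whether counting used the strand is not stated.

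Ordered by level per kb in Braf+/+, Cdkn2d came first at 379 ± 17.7 (SD, n = 5), followed by Cdkn1b at 232 ± 13.4, Ccnd2 at 193, Ccnd1 at 192 and Cdk4 at 191 ± 10.8. Ranges over the 5 controls overlapped among Ccnd2, Ccnd1 and Cdk4, so the order of these genes is not settled. Cdkn1b, at 216 or more in every control, lay above the ranges of Ccnd2 (up to 212) and Cdk4 (up to 205). It met that of Ccnd1 at 216, the value of both genes in Braf+/+ replicate 5. Below them were Cdkn1c at 93.2 ± 32.6, Ccnd3, Cdkn1a at 20.1 ± 1.93, Cdkn2c at 5.78 ± 0.954 and Cdk6 at 4.70 ± 0.507. The ranges of Cdkn1c and Ccnd3 overlapped, as did those of Cdkn2c and Cdk6. In Nestin;BrafKE/+, Ccnd1 at 342 ± 32.5 (SD, n = 4) stood next to Cdkn2d at 361 ± 16.3, and Cdk4 at 206 ± 12.7 and Ccnd2 at 196 ± 10.3 followed, with Cdkn1b between them.

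Genes that act around and after the D-type cyclins were read from lists of 69 genes, of which 60 were tested. None had an adjusted p under 0.05 in limma, where 2.88% of all genes passed, and 7 had an unadjusted p under 0.05 (11.7%, against 18.5% of all genes tested). Their median log2 fold change was -0.01, with 27 higher and 33 lower. Among 11 pocket protein and E2F genes, Rb1, the main target of CDK4 and CDK6, was at 825 ± 117 (SD, n = 4) against 849 ± 135 (SD, n = 5), and its log2 difference was -0.04 (SE 0.14). E2f1, which drives S phase genes, stood at -0.30 ± 0.13 (SE) in log2 fold change (adjusted p = 0.246). Among 11 later cyclins, CDKs and their switches, the median was -0.23, and the values reached from -0.36 for Ccne2, which activates CDK2, to 0.28. Cdc25a and Wee1, a phosphatase that activates CDKs and a kinase that restrains them, differed by -0.33 (adjusted p = 0.212) and -0.25 (adjusted p = 0.146).

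Among 21 S phase and mitosis genes the median log2 fold change was -0.01. Mki67, the marker of dividing cells, was at 38.2 ± 9.04 in the mutants (SD, n = 4) and 38 ± 5.22 in the controls (SD, n = 5), with a 95% interval of -0.53 to 0.52 for its log2 fold change. Pcna, the clamp of replicating DNA, was at 786 ± 39.0 and 761 ± 27.8. Top2a was at 24.9 ± 6.66 and 36.3 ± 11.3 (log2 difference -0.51, SE 0.31, adjusted p = 0.420). Among 16 genes of the CDK-activating kinase and of cyclin or inhibitor turnover, Gsk3b, a kinase that marks cyclin D1 for export and degradation, had -0.19 ± 0.06 (SE) in log2 fold change (adjusted p = 0.127). Skp2, which targets p27 for degradation, had -0.22 ± 0.14 (SE) with an adjusted p of 0.448.

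**Figure D4:**
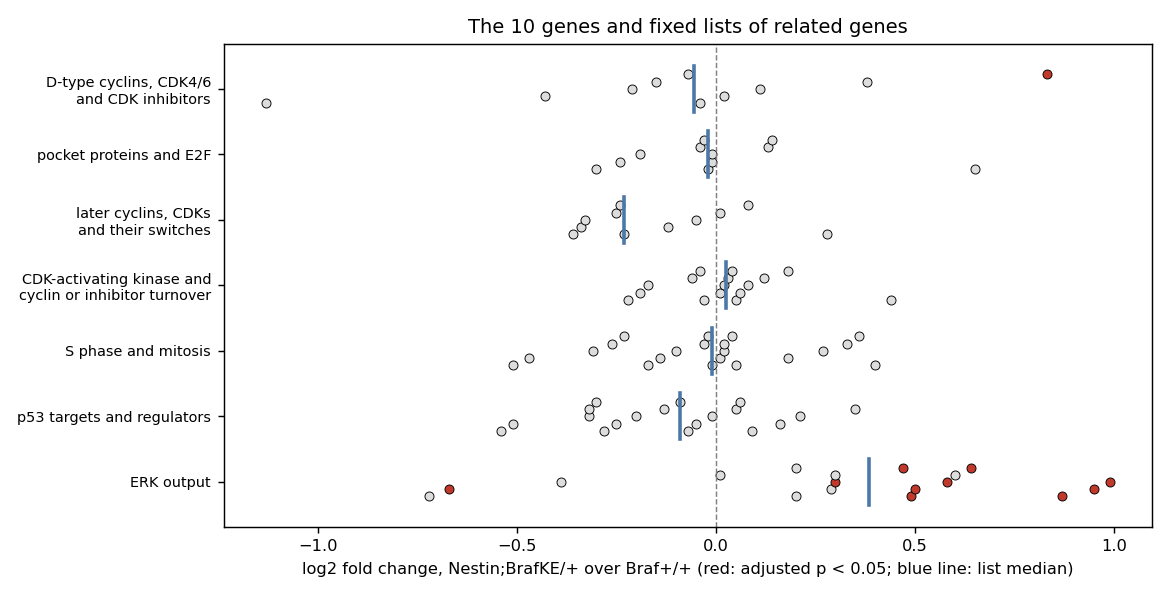
Log2 fold change of Nestin;BrafKE/+ over Braf+/+ (horizontal axis) of each gene tested among the 10 and in 6 lists of related genes, with red for an adjusted p under 0.05 and a blue line at each list's median. Red points lie at Ccnd1 and in the ERK output list, whose median is 0.39, and no point is red in the cell cycle lists.

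Of 18 genes of ERK output, feedback inhibitors and transcription factors that ERK signalling induces, 9 passed in the direction of Ccnd1 and 1, Fos, in the other (log2 fold change -0.67, adjusted p = 0.0457). Over all genes tested 1.52% passed higher and 1.36% lower. This list was chosen with earlier results of these data known, so its count is a description and no separate support for the rise of Ccnd1. The median log2 fold change of this list was 0.39, and that of Ccnd1 (0.83) lay between those of Spry4 (0.87) and Spred3 (0.64). By Pearson's r of log2 values across the 9 libraries after series means were removed, the genes most like Ccnd1 among 13230 whose mean value reached 50 were Cyb5r1 (r = 0.995), Lcat (0.989), Adhfe1 (0.988), Mt2 (0.986) and Spon1 (0.986). All of these rose, with log2 fold changes of 0.36 to 0.73. The points share their libraries and the genotype difference, so r is given as a description. On the same measure r with Ccnd1 was -0.842 for Cdkn1b, -0.749 for Cdkn1c, -0.748 for Cdk6 and 0.133 for Ccnd2.

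Marker lists of other cell types are given for comparison. Of the 10 oligodendrocyte precursor genes 9 were higher in Nestin;BrafKE/+, and Cspg4, their surface proteoglycan NG2, rose (log2 fold change 0.65, adjusted p = 0.00261). The summed signal of 11 oligodendrocyte genes was 129467 to 139573 in Nestin;BrafKE/+ and 94747 to 115032 in Braf+/+, with 4 past the threshold, all higher. The 10 pyramidal cell genes summed to 31455 to 33424 against 27852 to 30590, and the 10 interneuron genes to 24335 to 25721 against 20849 to 22644, so these sums did not overlap either. Sums overlapped for the lists that follow. That of 10 astrocyte genes was 113184 to 126412 against 105797 to 119515. A large part of it was Slc1a2, at a mean of 63194 against 65668. Of these 10 genes 8 were higher, with a median log2 fold change of 0.23, and 2, Gfap (0.68) and Aldoc (0.35), passed the threshold. Microglia genes summed to 7870 to 8642 against 7124 to 7930, and genes of new neurons and progenitors to 7482 to 8618 against 7524 to 9207. No gene of these lists was at 0. The oligodendrocyte precursor and the choroid plexus and ependyma levels were used as covariates, and the part of the other cell types in the values of the 10 genes was not tested.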

How the data were processed

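Stranded mRNA libraries were sequenced from the hippocampus of 4 Nestin;BrafKE/+ and 5 Braf+/+ mice. The authors used TrimGalore for trimming, STAR for alignment to GRCm39 and Salmon for quantification, then adjusted the values for unnamed batches and applied DESeq2 scaling. The deposited values are a signal in normalised counts per gene and library. Within each library they are whole multiples of 1 step, but mt-Co1 holds the whole number 491938 in all 9 libraries, so they are not sequenced reads and no count model was used. The series term had an unadjusted p under 0.05 for 0% of genes, as series means had been removed, so fits without that term understate the error. Permutations over all arrangements take no account of series either.

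Tests used log2(value + 1) of genes whose mean reached 10, in limma 3.58.1 (R 4.3.3, trended eBayes), with genotype and series as terms. The threshold was an adjusted p of 0.05 (Benjamini-Hochberg). The fit was tested on simulated data. Each library was 1 mouse, per the methods of the study. Exon lengths and positions came from Gencode vM39, and figures were drawn with matplotlib 3.10.9. All 10 genes and every gene of a fixed list past the threshold could be named, as could the 5 genes most like a gene past the threshold. The genes and lists were chosen with earlier results of these data known.

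Alternatives were a pseudocount of 8, a minimum mean of 50 or none, rescaling by trimmed means (TMM), no series term, 4 name prefixes, replicate numbers as a block, leaving out each library and, added after seeing the data, 2 marker levels as covariates. Exact permutation tests over libraries were computed for the 10 genes and for sums and shares of their levels, and are given for the 4 genes with an unadjusted p under 0.05 and for the Ccnd1 share.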

Additional observations from a re-analysis of the deposited data

Results flagged for a closer look

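Cdkn1a in Braf+/+ replicate 5 lay far from the other controls, at a normalised signal of 142 against 114 to 119 in the other 4. Of 22 groups of values examined in this way 1 stood out, and chance gives about 1 in 20.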

How the results depend on the processing

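Of 179 log2 fold changes of the 10 genes under alternative settings, 162 kept their direction and their side of the threshold. The Ccnd1 share differed by 13.2 to 15.0 points under its alternatives. Ccnd1 passed under each alternative except the oligodendrocyte precursor covariate (0.74), with log2 fold changes of 0.69 to 0.95. The number of the 10 past the threshold was 1 whichever library was left out. With no series term it was 4, as Cdk6 (limma adjusted p = 0.0388), Cdkn1b (0.0266) and Cdkn1c (0.0283) joined Ccnd1. In that fit 2260 of all 16196 genes passed, against 466 in the reported fit. With the replicate block it was 2, as Cdkn1b (0.0247) joined, and 1405 of all genes passed. With the oligodendrocyte precursor covariate it was 0, as for all genes tested. The replicate numbers do not pair the mice (correlations of same-numbered deviations -0.39, -0.0779, 0.0686 and 0.415). Of 111 related genes, 11 passed in the reported fit, 23 with no series term, 7 with 4 name prefixes, 17 with the replicate block, 0 with the oligodendrocyte precursor covariate, and 4 to 11 when 1 library was left out (4 without Nestin;BrafKE/+ replicate 1, 6 without its replicate 3, and 7 and 6 without Braf+/+ replicates 1 and 4).

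When 1 library was left out, the log2 fold change was -0.08 to 0.08 for Ccnd2, -0.16 to 0.12 for Cdkn1a and -0.15 to 0.01 for Cdkn2d, and its direction reversed. Ccnd2 was at -0.08 without Braf+/+ replicate 4, -0.05 with the choroid plexus covariate and -0.18 with the oligodendrocyte precursor covariate. The oligodendrocyte precursor covariate largely follows genotype, so its estimates are imprecise. It also gave -0.22 for Cdk4, 0.23 for Cdkn1c and -0.35 for Cdkn2c, and without a change of direction -0.02 for Cdkn1b and -0.99 for Cdk6. Cdkn1a was at 0.02 with the replicate block, 0.04 without Nestin;BrafKE/+ replicate 2, 0.12 without Nestin;BrafKE/+ replicate 4 or Braf+/+ replicate 5, and 0.01 with the choroid plexus covariate. Cdkn2d was at 0.01 without Nestin;BrafKE/+ replicate 1. The cause was not tested. Depth is unknown. The SE in the reported fit was largest for Cdkn1c (0.34), followed by Cdkn2c (0.23) and by Cdk6 and Cdkn1a (0.18 each).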

Other observations

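Genes of the p53 response and its regulators, a response which Cdkn1a belongs to, had a summed normalised signal of 14888 to 15351 in Nestin;BrafKE/+ and 16042 to 16488 in Braf+/+. Abundant genes weigh most in this sum. Plk2, the highest, had means of 3531 and 4042, Ccng1 of 1441 and 1708, and Zmat3, in the other direction, of 1901 and 1702. Of 19 tested, 0 had an adjusted p under 0.05 in limma and 7 had an unadjusted p under 0.05 (18.5% of all genes tested did), 13 were lower, and the median log2 fold change was -0.09. Sesn1, a stress-induced protein that restrains growth signalling, differed by -0.32 on the log2 scale (adjusted p = 0.0577), and Btg2, an antiproliferative gene, by -0.32 (adjusted p = 0.115). Gadd45a, another growth arrest gene, went the other way at 0.35 (adjusted p = 0.256), and Trp53 itself was at 383 ± 29.7 (SD, n = 4) and 368 ± 15.9 (SD, n = 5).

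Of 14 genes of the FOXO, TGF-beta and glucocorticoid responses, which act on CIP/KIP genes, Irs2 rose (log2 fold change 0.21, adjusted p = 0.0479) and the others did not pass, with a median of -0.01. Fkbp5, a sensitive target of the glucocorticoid receptor, had a log2 fold change of 0.05 (SE 0.10).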
